A study of Mus musculus with 9 samples.

Results

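Ribosomal protein genes encode the proteins of the cytosolic ribosome, and 47 such genes of 18295 genes with a usable probe were followed in mouse knee chondrocytes on a stiff ECM, on a soft ECM and in samples labelled normal. The genes were taken by symbol, as those beginning with Rpl or Rps and a digit, together with Rplp0 and Rpsa, without the Rps6k kinases and pseudogenes. The symbols themselves use no measured value, but the list was chosen with earlier results of these data known. Of the 47 genes, 25 encode proteins of the large subunit and 14 proteins of the small subunit. The other 8 carry such a symbol but are paralogs, retrogenes or binding proteins (Rpl3l, Rpl6l, Rpl7l1, Rpl39l, Rps4l, Rps23rg1, Rps27l and Rps19bp1). The 39 subunit proteins are part of 77 known ones, and the other 38, among them Rplp1, Rplp2, Rpl11, Rps6 and Rps27a, were not analysed here.

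A ribosome holds 1 copy of almost every one of its proteins, and the genes behind them are expressed in all dividing cells. Most of their mRNAs open with a terminal oligopyrimidine (TOP) motif, a C at the first transcribed base followed by a run of C and T. Through this motif the kinase mTORC1 sets how well the mRNA is translated, so output can change with no change of the mRNA level, which is what an array measures. Surplus Rpl5 and Rpl11, bound to 5S rRNA, inhibit Mdm2 and thereby raise p53, so some members also act in signalling. Matrix production makes heavy demands on translation in cartilage.

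The TOP motif was looked for in RefSeq promoters (build GRCm38.p6), which were found for 40 of the 47 genes. A C followed by at least 4 pyrimidines stood at an annotated start in 7 of the 40 members (17.5%) and in 3.01% of 27025 genes. Within 10 bases of the start it occurred, on the strand that reads like the mRNA, in 22 members (55%) and in 34.4% of all genes. Annotated starts can be off by some bases, so a motif missed at the start is no sign of its absence. The 7 starts are shown because they hold the motif, a feature that the choice by symbol did not use. Rps27l, the paralog of Rps27, is added because its start does not open with it. The motif does occur within 10 bases of the Rps27l start shown, and another annotated start of this gene is not shown. Rpl35a and Rps21 also have annotated starts without the motif, which are not shown. Each line runs 5′ to 3′, 20 bases before to 20 after the start, with the pyrimidine run at the start in capitals.
Rpl14, chr9:120571497-120571537, plus strand: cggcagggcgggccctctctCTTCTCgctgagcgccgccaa
Rpl15, chr14:18270966-18271006, minus strand: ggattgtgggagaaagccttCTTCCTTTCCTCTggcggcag
Rpl35a, chr16:33056462-33056502, plus strand: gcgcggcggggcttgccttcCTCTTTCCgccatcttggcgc
Rpl38, chr11:114668560-114668600, plus strand: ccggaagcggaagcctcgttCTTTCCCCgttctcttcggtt
Rps15a, chr7:118116127-118116167, minus strand: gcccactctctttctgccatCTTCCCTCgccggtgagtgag
Rps21, chr2:180257359-180257399, plus strand: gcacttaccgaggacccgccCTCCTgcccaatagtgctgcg
Rps27, chr3:90213628-90213668, minus strand: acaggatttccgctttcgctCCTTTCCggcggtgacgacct
Rps27l, chr9:66946066-66946106, plus strand: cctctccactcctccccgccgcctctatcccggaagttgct

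The cells were primary knee chondrocytes of 1-day-old Kunming mice, freed with collagenase, grown as a monolayer and plated for 24 h, per the labels, on the stiff ECM (a 100 kPa polyacrylamide gel), the soft ECM (a 500 Pa gel) or normal ECM, with 3 samples each. Both gels were coated with type I collagen. No source used here names the normal substrate, so a difference from normal can be one of stiffness, coating or gel, and these cannot be told apart. A figure legend of the study gives a longer time on the gels than the labels. Whether replicates were separate cultures is not stated, so the p-values rest on a replicate spread that may be a technical one.

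Each sample's RNA was hybridised to single-colour arrays, and a value is the background-subtracted intensity of a probe. Median intensity of all probes was 165.81 to 175.07 on the stiff ECM, 137.4 to 150.04 on the soft ECM and 123.98 to 179.42 in normal samples. The chondrocyte label was checked against markers. Col2a1, the main cartilage collagen, read 3505 to 4092 on the stiff ECM, 3304 to 3963 on the soft ECM and 8720 to 11070 in normal samples. Sox9, the chondrocyte transcription factor, read 611.9 to 814.8 over all samples, whereas the cartilage matrix gene Matn1 read 3.10 to 10.7, as dim as silent genes. Skeletal muscle genes were also bright (34 measured of 35 listed), with a summed intensity of 230700 to 263800 on the stiff ECM, 330200 to 365700 on the soft ECM and 340600 to 398400 in normal samples. Of these, 9 passed the test as lower on the stiff than on the soft ECM, beside 0.417% of all probes. Against normal 25 passed as lower on the stiff ECM, beside 5.14% of all probes. The part of the muscle genes in the ribosomal protein values was not tested. In these bulk samples fewer cells of a type and less RNA per cell cannot be told apart.

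The members spanned nearly the whole range of the array. Levels of different genes are not compared here, because each probe has its own response, and the order by brightness is that of the probes. The 4 brightest were Rpl41, the smallest ribosomal protein, Rps26, which lies at the mRNA exit channel, Rpl8 and Rpl4, 2 proteins of the large subunit core. Each of the 9 samples had 16 to 33 probes within 0.1% of its highest value, which lay between 60384 and 70058, so the scanner had a ceiling. Rpl41 stood at the ceiling in normal 2 and normal 3, and Rps26 in normal 2. The 4 genes reached at least 80% of the highest value in at least 1 sample, Rpl41 and Rps26 in all 9.

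Close to the ceiling a probe can show less of a difference than there is. Rpl41 read 55710, 56720 and 56690 on the stiff ECM, 63370, 54420 and 63070 on the soft ECM, and 64490, 60380 and 69110 in normal samples. Rps26 read 50630, 54040 and 57500 on the stiff ECM, 52840, 57910 and 52680 on the soft ECM, and 67270, 60380 and 62170 in normal samples. For both genes the stiff samples all lay below the normal ones and the gels overlapped each other. Stiff over normal was -0.20 for Rpl41 (SE 0.09, limma adjusted p = 0.17) and -0.23 for Rps26 (SE 0.09, limma adjusted p = 0.11) on the log2 scale, and -0.03 and -0.06 after loess normalization. Rpl8 and Rpl4 showed no such order. Rpl8 averaged 55280 ± 7553 on the stiff ECM, 54690 ± 7194 on the soft ECM and 50930 ± 4057 in normal samples (SD, n = 3 each). Rpl4 averaged 48810 ± 1942, 50170 ± 1671 and 52520 ± 2396 in stiff, soft and normal samples (SD, n = 3 each). The gene next in brightness, Rps27l, read 26420 at most and was clear of the ceiling.

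**Figure D1:**
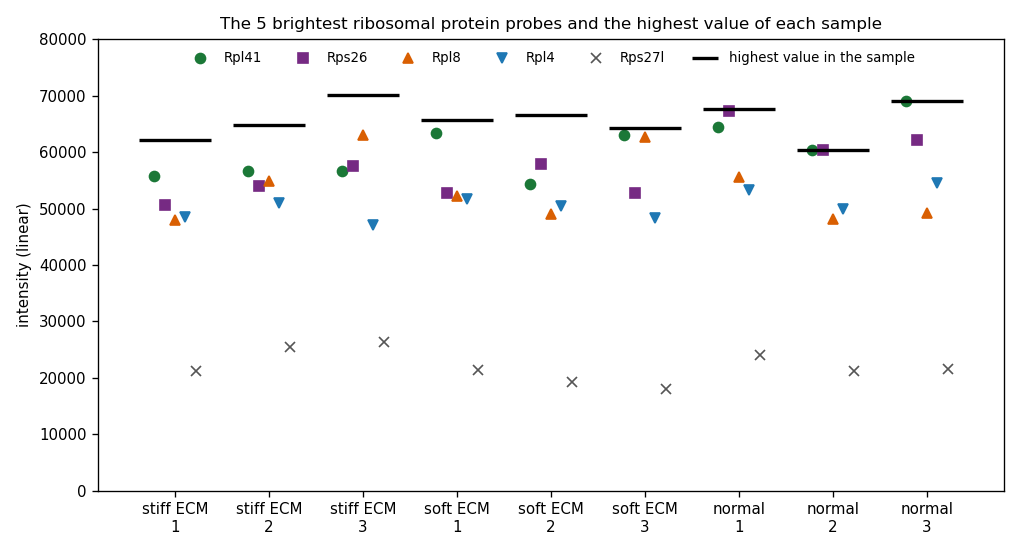
Intensity (linear axis from 0) of the 5 brightest ribosomal protein probes in each of the 9 samples, with a black bar at the highest value read in that sample. Rpl41 touches the bar in normal 2 and 3 and Rps26 in normal 2, while Rps27l stays well below it.

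At the other end 16 members were dimmer on average than the 95th percentile (332.4) of 445 olfactory receptor genes, genes of the nose that serve here as a gauge of silence. Rps29 and Rps23rg1 lay below the olfactory median of 46.14. An intensity at this level does not show that an mRNA was rare, since each probe has its own response. The dimmest subunit proteins were Rps29, a zinc-binding protein, at 12.91 to 33.16, Rpsa, also known as laminin receptor, at 47.07 to 80.21, Rps3a1 at 75.31 to 116.7, Rpl37 at 89.88 to 146.6 and Rpl29 at 96.28 to 177.3. Many ribosomal protein genes have processed pseudogenes of nearly the same sequence, and a probe cannot be assumed to read 1 gene alone.

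Stiff against soft ECM addresses what matrix stiffness does to the ribosomal protein mRNAs. None of the 47 passed limma's test at an adjusted p under 0.05, in either direction. Over all probes 1.77% passed, 1.35% as higher and 0.417% as lower. This share rests on few samples, since the 441 probes became 0 without stiff replicate 2 and 2377 without normal replicate 1. At an unadjusted p under 0.05 there were 7 members (4 higher, 3 lower; 8 by the methods' t-test, which the study names for its experiments in general and not for the arrays, and of which 0 passed adjustment), and 21.6% of all probes. The samples of the 2 gels did not overlap in 13 members, 8 higher and 5 lower on the stiff ECM, and in 38.1% of all probes. The shares of members, 14.89% and 27.66%, lay below those of all probes, and those of the 2495 brightest probes were 23.61% and 30.22%.

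The differences were also small. The median log2 fold change of the members was 0.01, with quartiles of -0.09 and 0.18, whereas that of all probes was 0.18 and that of the 2495 brightest probes -0.03. After loess normalization, which brings the median of all probes to 0.01, the members' median was -0.04. In 45 of 47 members, and 41 of the 43 not near the ceiling, the fold change was under 0.5 on the log2 scale, the exceptions being the dim Rps29 and Rps23rg1. Of those 43 the 95% interval lay wholly within 0.5 either way in 24 and within 1 in 40. Large subunit proteins had a median of -0.02 and small subunit proteins one of 0.07, a difference that was not tested. The 7 members with a TOP start ran from -0.28 (Rps21) to 0.23 (Rps15a), with -0.21 for Rpl15, 0.01 for Rpl35a, 0.03 for Rpl14, 0.05 for Rps27 and 0.06 for Rpl38.

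**Figure D2:**
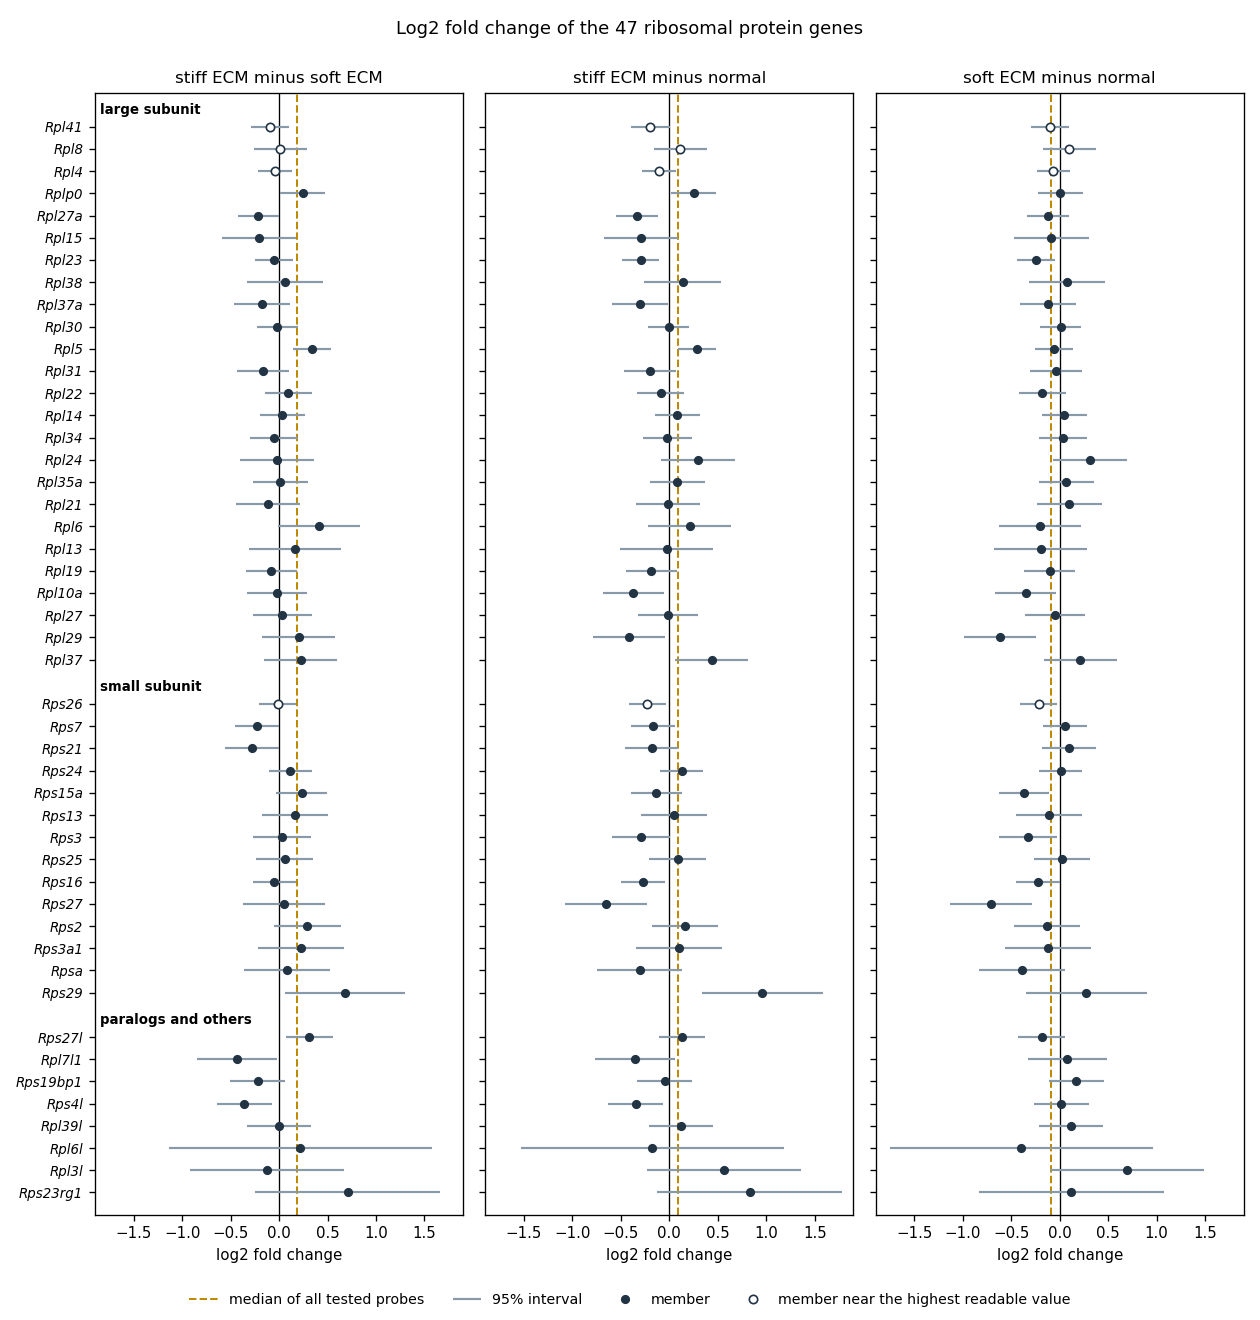
Log2 fold change of each of the 47 genes (point) with its 95% interval (line) for stiff ECM minus soft ECM, stiff ECM minus normal and soft ECM minus normal, by subunit and then by brightness, with a dashed line at the median of all tested probes. Most points lie within 0.5 of 0, open points are the 4 genes near the highest readable value, and the widest intervals are those of dim probes such as Rpl6l.

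Rpl5, the large subunit protein that binds 5S rRNA, had the smallest p of the members between the gels. It read 3510, 3356 and 3026 on the stiff ECM, 2647, 2542 and 2613 on the soft ECM, and 2738, 2624 and 2742 in normal samples. All 3 stiff samples lay above the other 6, and the soft and normal samples overlapped. The log2 fold change of stiff over soft was 0.34 (SE 0.09, limma adjusted p = 0.072), and that of stiff over normal 0.29 (SE 0.09, limma adjusted p = 0.065). After loess normalization they were 0.33 and 0.41, and both passed (limma adjusted p = 0.040 and 0.0068). After median centring they were 0.09 and 0.13 (limma adjusted p = 0.69 and 0.48). Over all alternatives the adjusted p ran between 0.0049 and 0.69 for stiff against soft and between 0.006 and 0.48 for stiff against normal.

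Rplp0, the base of the ribosomal stalk and a common reference gene in PCR, read 8561, 8120 and 9670 on the stiff ECM, 7763, 7942 and 6580 on the soft ECM, and 7896, 7255 and 6967 in normal samples. The stiff samples were again highest, by 0.24 over soft (SE 0.11, limma adjusted p = 0.22) and 0.25 over normal (SE 0.11, limma adjusted p = 0.14) on the log2 scale. Rpl6 and Rpl22 were likewise higher in each stiff than in each soft sample, Rpl6 with a log2 fold change of 0.41 (SE 0.19) on a dim probe and Rpl22 with 0.09 (SE 0.11). Rpl19 was the 1 large subunit protein lower in each stiff than in each soft sample, at -0.08. Rpl30 and Rpl14 differed by a few percent, with means of 3029 and 3071 for Rpl30 and of 1186 and 1154 for Rpl14 on the stiff and the soft ECM.

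Among small subunit proteins Rps15a, Rps2 and Rps29 lay higher in every stiff than in every soft sample, and Rps7 and Rps21 lower. Rps21, which works in the maturation of 18S rRNA, read 1981, 1761 and 1651 on the stiff ECM and 2263, 2287 and 1998 on the soft ECM. This gave a log2 fold change of -0.28 (SE 0.13, limma adjusted p = 0.22), and the normal samples (2295, 1723 and 2135) overlapped with both gels. Rps7, which can also bind Mdm2, read 11220, 11920 and 10620 on the stiff ECM against 14780, 12190 and 12610 on the soft ECM (log2 fold change -0.23, SE 0.10, limma adjusted p = 0.23). A dimmer probe of Rps7 had 0.04 (SE 0.21), and its stiff and soft samples overlapped. Rps29 read 27.51, 32.64 and 33.16 on the stiff ECM, 16.04, 18.32 and 24.52 on the soft ECM, and 18.6, 12.91 and 16.89 in normal samples. These are levels of silent genes, and the olfactory receptor genes lay higher on the stiff ECM too. Their median log2 fold change was 0.53 for stiff over soft and 0.56 for stiff over normal, beside 0.68 (SE 0.28) and 0.96 (SE 0.28) for Rps29. For Rps29 the values were 0.32 and 0.56 after loess normalization and 0.06 and 0.27 after quantile normalization, and the part of the shift in them was not tested.

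The 16 members dimmer than the olfactory 95th percentile had a median of 0.18 (log2, stiff over soft), 13 of them above 0 and 3 below. The 31 brighter members had a median of -0.02, 13 above 0 and 18 below. Of the members whose gels did not overlap, 4 of those higher and 1 of those lower on the stiff ECM were among the 16.

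Of the paralogs, Rps27l came nearest to the threshold between the gels. It is a target of p53 in human and mouse cells and can stand in for Rps27 in the ribosome. Its probe read 21190, 25370 and 26420 on the stiff ECM, 21410, 19210 and 17970 on the soft ECM, and 23960, 21150 and 21500 in normal samples. Stiff replicate 1 lay within the range of the soft samples, and the log2 fold change was 0.31 (SE 0.11, limma adjusted p = 0.14). Of 9 measured p53 targets and partners 0 passed between the gels, with Trp53inp1 closest (0.40, SE 0.09, limma adjusted p = 0.054). Compared with normal samples, 3 of the 9 passed as lower in stiff samples, beside 5.14% of all probes. They were Cdkn1a (-0.33), Sesn1 (-0.50) and Bbc3 (-0.48). In soft samples 2 passed as lower, Mdm2 (-0.44) and Bbc3 (-0.64), beside 3.21% of all probes, and all 9 fold changes lay below 0. With 1 sample left out these calls held in 2, 6, 3, 2 and 5 of 9 fits, in the order given.

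Rps4l, an autosomal relative of the X-linked Rps4x, read 537.9, 464.9 and 488.9 on the stiff ECM, 614.4, 596.4 and 706.1 on the soft ECM, and 681.9, 544 and 675.4 in normal samples. All stiff samples lay below all others, with a log2 fold change of -0.36 against soft (SE 0.13, limma adjusted p = 0.15) and -0.35 against normal (SE 0.13, limma adjusted p = 0.11). Quantile normalization and median centring carried Rps4l past the threshold against soft (limma adjusted p = 0.040 and 0.043; range over all alternatives 0.011 to 0.41). Rpl7l1, a factor of early large subunit assembly, averaged 4147 ± 1060 on the stiff ECM, 5519 ± 986.1 on the soft ECM and 5175 ± 287.9 in normal samples (SD, n = 3 each), and stiff replicate 3, at 2927, was the lowest of the stiff samples. Rps19bp1, which is not a ribosomal protein but binds Rps19 and the deacetylase Sirt1, read 2965 to 3331 on the stiff ECM, 3346 to 4340 on the soft ECM and 2842 to 3713 in normal samples.

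Rpl3l takes the place of Rpl3 in striated muscle ribosomes, and muscle genes were lower on the stiff ECM. Its brightest probe read 106.2, 49.45 and 160.5 on the stiff ECM, 104.2, 112 and 94.15 on the soft ECM, and 49.59, 66.39 and 79.15 in normal samples, and the stiff samples overlapped with both. A dimmer probe of Rpl3l read 81.58, 52.42 and 73.81 on the stiff ECM, 120.3, 101.8 and 146.1 on the soft ECM, and 64.05, 70.08 and 88.65 in normal samples. Its log2 fold change was -0.83 for stiff over soft (SE 0.23, limma adjusted p = 0.080) and -0.11 for stiff over normal (SE 0.23, limma adjusted p = 0.77). The dimmest Rpl3l probe had 0.39 for stiff over soft (SE 0.63). All these probes were as dim as silent genes. Rpl39l, a paralog known from testis, averaged 267.1 ± 5.61 on the stiff ECM, 268.3 ± 32.5 on the soft ECM and 247.7 ± 40.3 in normal samples (SD, n = 3 each). Rpl6l was the most variable member, at 33.16 to 244.3 on the stiff ECM, 73.16 to 136.3 on the soft ECM and 85.75 to 178.4 in normal samples. Rps23rg1, a retrogene of Rps23, read 33.16 to 34.62 on the stiff ECM, 13.23 to 27.46 on the soft ECM and 9.30 to 27.44 in normal samples, below the olfactory median. The intensities of dim probes move in equal steps within an array, so that Rps29, Rpl6l and Rps23rg1 share the value 33.16 in stiff 3.

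**Figure D3:**
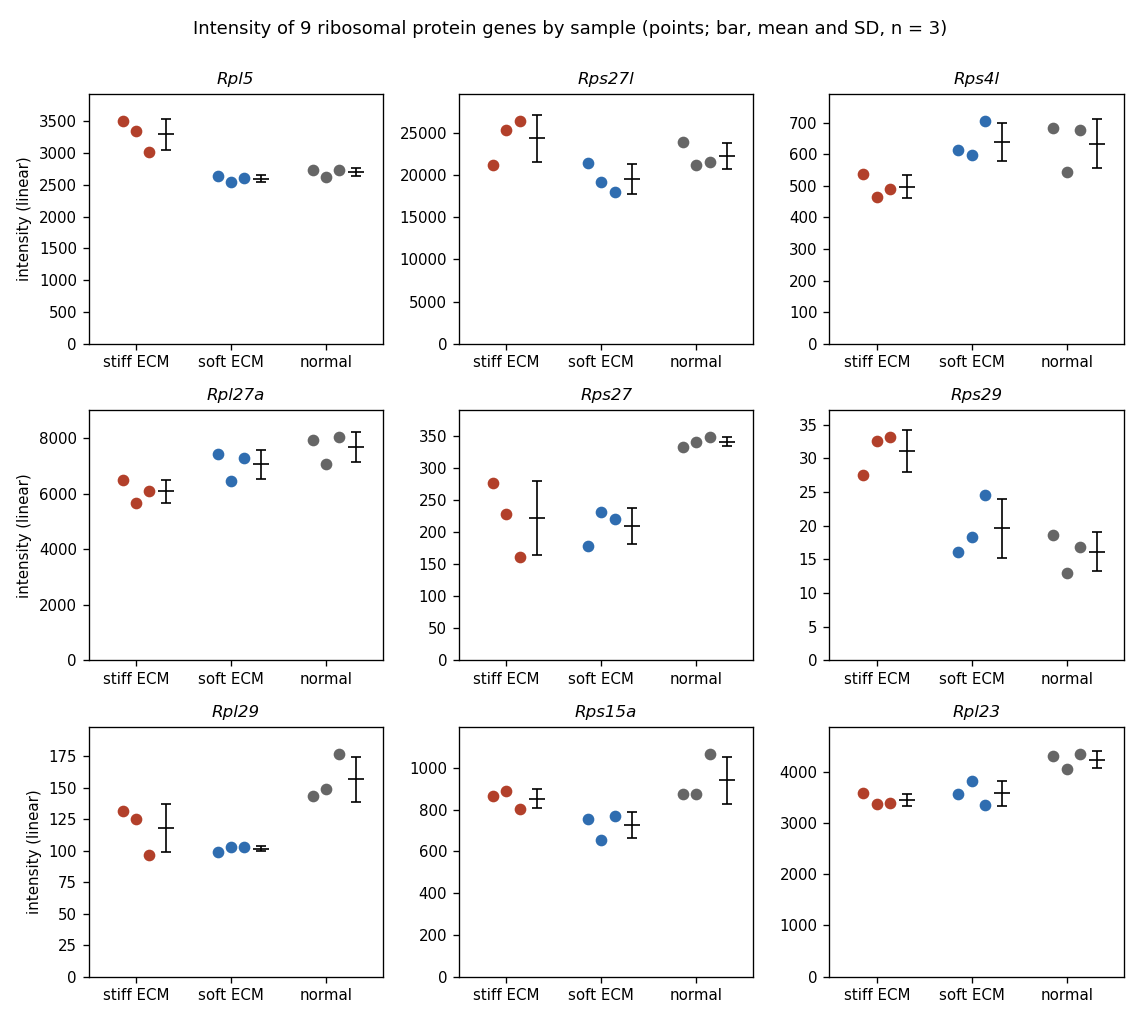
Intensity (linear axes from 0) of 9 genes, the 3 with the smallest p of each comparison and Rpl23, 1 point per sample, with the mean and SD of the 3 samples beside them. Rpl5 is highest in the 3 stiff samples, and Rps27, Rpl29 and Rpl23 are highest in the 3 normal samples.

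Against the normal samples, too, none of the 47 members passed on the stiff ECM, while 9.94% of all probes did (4.8% higher, 5.14% lower). The 2478 probes became 541 without stiff replicate 2 and 4092 without normal replicate 3. At an unadjusted p under 0.05 there were 13 members, 4 higher and 9 lower (12 by the methods' t-test, 0 after adjustment), and 30% of all probes. Stiff and normal samples did not overlap in 21 members, 7 higher and 14 lower, and in 33.9% of all probes. The members' share was 44.68%, and that of the 2495 brightest probes 40.68%. The median log2 fold change was -0.03 for the members, 0.09 for all probes and -0.15 for the brightest probes. Of the 43 members not near the ceiling, 39 had a fold change under 0.5, and the 95% interval lay within 0.5 in 22.

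Rps27, a zinc-binding small subunit protein whose promoter opens with a TOP motif, had the most negative log2 fold change against normal of all members on both gels. It read 276.1, 228.5 and 161.5 on the stiff ECM, 178.4, 232 and 219.7 on the soft ECM, and 333.7, 341.2 and 348.3 in normal samples. No gel sample reached any normal sample, and the gels overlapped. The Rps27 probe, with a mean of 257.7, lay below the olfactory 95th percentile of 332.4. The log2 fold change was -0.65 for stiff over normal (SE 0.19, limma adjusted p = 0.055) and -0.71 for soft over normal (SE 0.19, limma adjusted p = 0.070). These comparisons share the normal samples. The adjusted p over all alternatives ran between 0.016 and 0.24 for the stiff and between 0.03 and 0.33 for the soft ECM. Its paralog Rps27l had 0.13 and -0.19 in the same comparisons, and the difference between the paralogs was not tested.

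Rpl29, whose loss in mice slows growth of the skeleton, likewise lay lower in every gel sample than in any normal sample. It read 131.9, 125.6 and 96.28 on the stiff ECM, 99.22, 102.8 and 103 on the soft ECM, and 143.6, 149.4 and 177.3 in normal samples. The log2 fold change was -0.42 for stiff over normal (SE 0.17, limma adjusted p = 0.13) and -0.62 for soft over normal (SE 0.17, limma adjusted p = 0.072), on a probe that 75.96% of olfactory receptor genes do not reach. After loess normalization the values were -0.61 (limma adjusted p = 0.018) and -0.57 (limma adjusted p = 0.049), and both passed. Rpl23, another Mdm2-binding large subunit protein, gave a well-measured case with 3584, 3382 and 3397 on the stiff ECM, 3580, 3827 and 3348 on the soft ECM, and 4316, 4053 and 4362 in normal samples. Its log2 fold change was -0.30 on the stiff ECM (SE 0.09, limma adjusted p = 0.056) and -0.24 on the soft ECM (SE 0.09, limma adjusted p = 0.15). After loess normalization these were -0.16 and -0.11.

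Rpl27a, a large subunit protein, had the lowest adjusted p of stiff against normal. It read 6501, 5674 and 6115 on the stiff ECM, 7455, 6468 and 7286 on the soft ECM, and 7941, 7075 and 8045 in normal samples (stiff over normal -0.33, SE 0.10, limma adjusted p = 0.053). After loess normalization the value was -0.19. The gene's dimmer probe went the other way against normal, at 0.18 (SE 0.10, limma adjusted p = 0.23), and the mean of both probes gave -0.08 (limma adjusted p = 0.57). Rps16, Rpl10a and Rpsa also lay lower in every stiff and every soft sample than in every normal sample, with log2 fold changes of -0.27, -0.37 and -0.31 on the stiff ECM and of -0.22, -0.35 and -0.39 on the soft ECM. The probes of Rpl10a and Rpsa were dimmer than the olfactory 95th percentile. The members higher in every stiff than in every normal sample were Rpl5, Rplp0, Rps24, Rpl24, Rpl37, Rps29 and Rps23rg1, at 0.13 to 0.96, the last 3 on probes among silent genes.

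On the soft ECM against normal 0 of 47 members passed, while 3.7% of all probes did (0.493% higher, 3.21% lower). The 924 probes became 138 without normal replicate 2 and 229 without soft replicate 3. At an unadjusted p under 0.05 there were 7 members, all lower (9 by the methods' t-test in either direction, 0 after adjustment), and 19.9% of all probes. The samples did not overlap in 11 members, 1 higher (Rpl3l) and 10 lower, and in 23.5% of all probes, a like share to the 23.4% of members. The median log2 fold change was -0.05 for the members, -0.09 for all probes and -0.11 for the brightest probes.

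Rps15a, a small subunit protein with a TOP start, read 868, 891.2 and 802.3 on the stiff ECM, 756.7, 656.5 and 768.9 on the soft ECM, and 878.2, 874.1 and 1070 in normal samples. The soft samples lay below all others, with a log2 fold change of soft over normal of -0.37 (SE 0.12, limma adjusted p = 0.11) and of stiff over soft of 0.23 (SE 0.12, limma adjusted p = 0.28). Rps3, which lines the mRNA entry of the small subunit, and Rpl22, a large subunit protein with roles in lymphocytes, were also lower in every soft than in every normal sample, at -0.32 (SE 0.14) and -0.18 (SE 0.11).

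Sample by sample the members were set beside all probes. The median deviation of the 47 genes from their own means was highest in normal 3, at 0.19 on the log2 scale with 37 of 47 genes above their mean, where all probes had 0.23 and the brightest probes 0.20. It was lowest in stiff 3, at -0.09 with 15 of 47 genes above, where all probes had 0.03 and the brightest probes -0.13. In soft 2 the 3 values were -0.08, -0.13 and -0.10, with 13 of 47 above. The members' summed intensity without the 4 genes near the ceiling was 96290 ± 2272 on the stiff ECM, 95370 ± 6622 on the soft ECM and 99280 ± 6014 in normal samples (SD, n = 3 each), and the ranges overlapped. Replicates agreed more closely than for most genes, with a median SD within groups of 0.159 on the log2 scale for the members, 0.228 for all probes and 0.135 for the brightest probes.

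**Figure D4:**
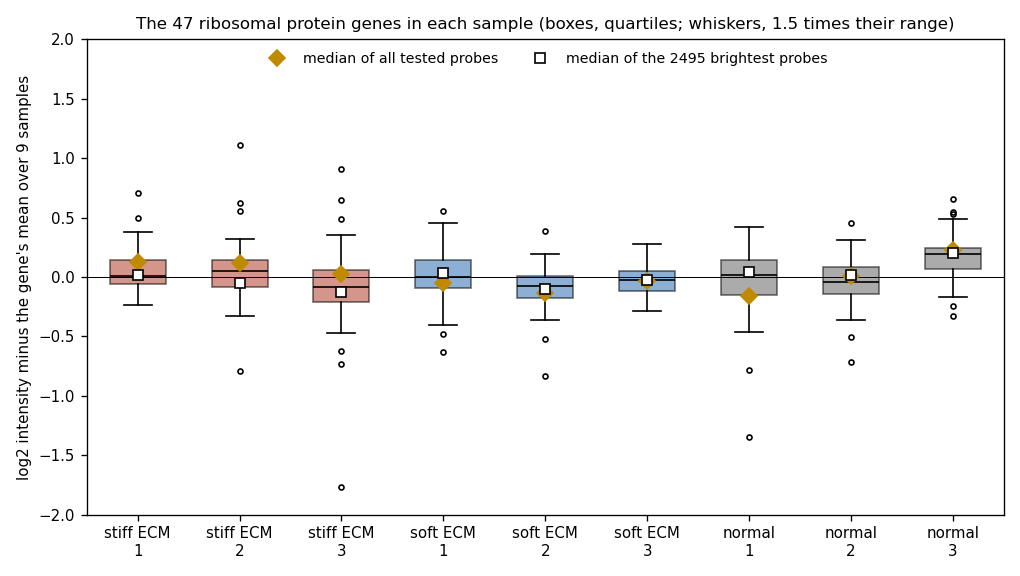
Deviation of the 47 genes from their own mean log2 intensity in each of the 9 samples (boxes, quartiles; line, median), with the median of all tested probes (diamonds) and of the 2495 brightest probes (squares). Normal 3 lies highest for all of them, and no group of 3 boxes stands apart from the others.

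Several probes of 1 gene did not always give the same sign. Of the 8 members with more than 1 tested probe, all probes of 3 pointed the same way between stiff and soft and those of 5 did not. Rpl27a is the clearest case. Its dimmer probe read 4216, 4752 and 5219 on the stiff ECM, 3986, 3905 and 3756 on the soft ECM, and 3949, 4157 and 4349 in normal samples, so that every stiff sample lay above every soft sample (log2 fold change 0.28, SE 0.10, limma adjusted p = 0.14). The brighter probe, given above, had -0.21 (SE 0.10, limma adjusted p = 0.23). The 95% intervals, 0.06 to 0.49 and -0.43 to 0.00, did not overlap, so the direction of Rpl27a depends on the probe. Rpl7l1 had -0.43 on its brighter and 0.15 on its dimmer probe, whereas both probes of Rps15a lay higher on the stiff ECM, at 0.23 and 0.60.

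**Figure D5:**
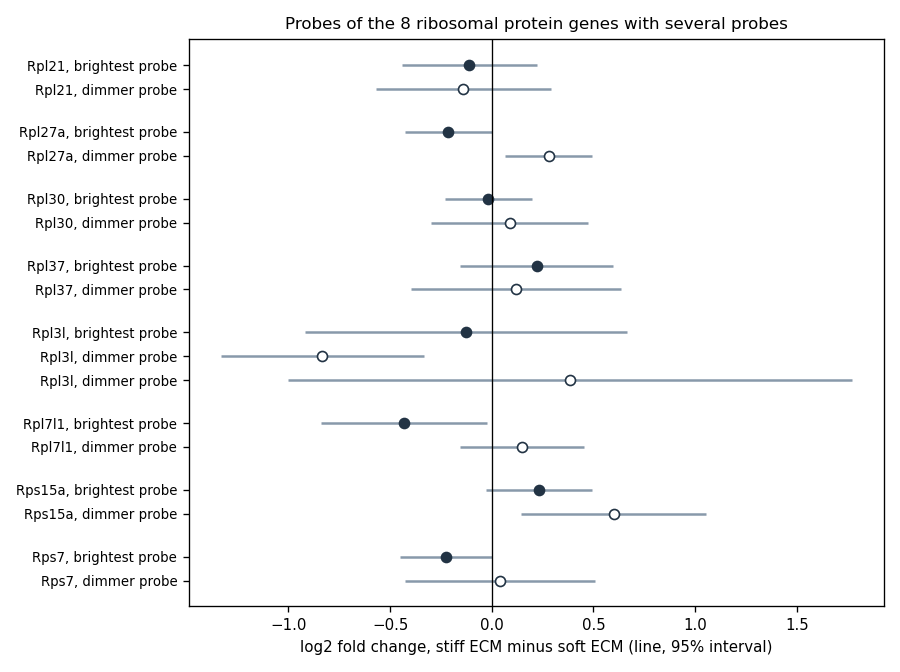
Log2 fold change, stiff ECM minus soft ECM, of every probe of the 8 genes with several probes (filled point, brightest probe; open point, dimmer probe; line, 95% interval). The 2 probes of Rpl27a lie on opposite sides of 0, and those of Rps15a on the same side.

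Genes that share the control or the work of the ribosomal proteins were counted from lists. Of 34 translation factors 0 passed between stiff and soft (median 0.01), and Pabpc1, the poly(A)-binding protein, came closest (0.51, SE 0.13, limma adjusted p = 0.068). After loess normalization Eif3a passed as higher on the stiff ECM (0.43, limma adjusted p = 0.0498). Against normal 1 of the 34, Eif3c, passed as lower on the stiff ECM (-0.46, limma adjusted p = 0.013), beside 5.14% of all probes. Eif3c held in 8 of 9 fits with 1 sample left out. Of 13 other genes with TOP mRNAs 0 passed between the gels (median 0.00). Tpt1 had -0.45 there (limma adjusted p = 0.081) and passed after loess normalization (-0.61, limma adjusted p = 0.030). On the stiff ECM against normal 1 of the 13 was higher and 1 lower, beside 4.8% and 5.14% of all probes. Against normal, Naca, the chaperone subunit at the peptide exit, was higher on the stiff ECM with 14120, 15840 and 16130 against 11300, 11220 and 13070 in normal samples (0.37, limma adjusted p = 0.040). After loess normalization Naca had 0.53 (limma adjusted p = 0.0092), and after median centring 0.22 (limma adjusted p = 0.24). Naca passed in 3 of 9 fits with 1 sample left out, with the highest limma adjusted p, 0.13, without stiff replicate 2. Tpt1, another TOP gene, was lower with 270.4, 241.3 and 218.2 against 400.9, 405.7 and 384.2 (-0.71, limma adjusted p = 0.0089). The Tpt1 probe was dim, with a mean of 396.9 in normal samples. On the stiff and the soft ECM it averaged 243.3 and 330.1, below the olfactory 95th percentile of 332.4. The fusion gene Fau, which encodes a small subunit protein but lies outside the choice by symbol, stood at the ceiling in all 3 normal samples. It read 54960 to 56500 on the stiff ECM, 60090 to 61430 on the soft ECM and 60380 to 69110 in normal samples.

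Of 44 ribosome biogenesis factors 1 was higher and 0 lower on the stiff than on the soft ECM, beside 1.35% and 0.417% of all probes. The 1 was Ddx18, a nucleolar helicase, with 2195, 2705 and 2347 on the stiff ECM, 1855, 1535 and 1357 on the soft ECM, and 1401, 1656 and 1396 in normal samples (stiff over soft 0.62, SE 0.14, limma adjusted p = 0.049). The call was lost after loess normalization (0.58, limma adjusted p = 0.062) and held in 2 of the 9 fits that left out 1 sample, with the highest adjusted p, 0.22, without stiff replicate 2. Dkc1, the pseudouridine synthase of rRNA, was near with 0.43 (SE 0.11, limma adjusted p = 0.067), and it passed after loess normalization (0.41, limma adjusted p = 0.043). Against normal 2 of the 44, Dkc1 and Ddx18, passed as higher on the stiff ECM (0.42 and 0.70), beside 4.8% of all probes. Of 22 subunits and factors of RNA polymerases I and III 0 passed between the gels. On the stiff ECM 2, Taf1a and Polr3d, were lower than in normal samples (-0.74 and -0.53), beside 5.14% of all probes.

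Of 17 regulators around mTORC1 and Myc, 1 passed between the gels, beside 1.77% of all probes. Rheb, the GTPase that activates mTORC1, read 619.5, 720 and 731.7 on the stiff ECM and 472.1, 460 and 480.5 on the soft ECM (0.55, SE 0.12, limma adjusted p = 0.044). It also held in 2 of 9 fits with 1 sample left out, with 0.22 without stiff replicate 2, and was lost after loess normalization (0.43, limma adjusted p = 0.051). Myc, a transcriptional activator of ribosomal protein genes, was lower on both gels than in normal samples, with 4368, 4638 and 4645 on the stiff ECM, 5512, 4553 and 3784 on the soft ECM, and 6628, 7130 and 7407 in normal samples (-0.63 on each gel, limma adjusted p = 0.016 for stiff and 0.024 for soft). Mycn was higher on the stiff ECM, with 388, 417.4 and 442.9 against 129.1, 210.2 and 280.7 in normal samples (1.08, limma adjusted p = 0.024). Its normal values lay below the olfactory 95th percentile of 332.4, and olfactory receptor genes had a median of 0.56 for stiff over normal. The part of that shift in Mycn was not tested. After loess normalization Mycn had 1.00 (limma adjusted p = 0.0076) and the olfactory receptor genes a median of 0.30. Of these calls against normal on the stiff ECM, those of Tpt1 and Taf1a held in all 9 fits with 1 sample left out, that of Ddx18 in 8, that of Myc in 7, those of Polr3d and Mycn in 6 and that of Dkc1 in 3, and the highest adjusted p of Ddx18, Myc, Polr3d, Mycn and Dkc1 (0.064, 0.057, 0.071, 0.078 and 0.14, limma) all came without stiff replicate 2. Myc on the soft ECM held in 5 of 9, with 0.09 without normal replicate 2, and had -0.49 after loess normalization (limma adjusted p = 0.052). Of the 17 regulators 1 was higher and 3 lower on the stiff ECM than in normal samples, and 2 were lower on the soft ECM. Besides Myc and Mycn these were Sesn2 on both gels (-0.77 and -0.96, limma adjusted p = 0.018 and 0.013) and Rps6kb2 on the stiff ECM (-0.52, limma adjusted p = 0.029). All probes passed in 9.94% and 3.7%. Sesn2 held in 6 and 7 of 9 fits with 1 sample left out, and Rps6kb2 in 6.

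The ribosomal proteins of mitochondria, encoded by other genes for another ribosome, had a median of -0.18 on the log2 scale for stiff over soft across 69 genes, beside 0.01 for the cytosolic members and 0.18 for all probes. The 2495 brightest probes had -0.03. After loess normalization the medians were -0.19 for the mitochondrial genes, -0.04 for the cytosolic members and 0.01 for all probes. Of the 69, 2 passed, both lower, beside 0.417% of all probes. Mrpl48 read 2623, 2281 and 2634 on the stiff ECM against 3955, 3891 and 4111 on the soft ECM (-0.67, SE 0.09, limma adjusted p = 0.012). Mrpl4 read 1857, 1553 and 1704 against 2711, 2389 and 2564 (-0.59, SE 0.12, limma adjusted p = 0.039). Mrpl48 passed in 7 and Mrpl4 in 3 of the 9 fits with 1 sample left out, and without stiff replicate 2 their adjusted p were 0.098 and 0.20 (limma). On the stiff ECM against normal 2 were higher and 8 lower, beside 4.8% and 5.14% of all probes. In either direction 9.94% of all probes and 15.15% of the 2495 brightest passed there. On the soft ECM against normal 0 passed, beside 3.7% of all probes. The difference between the families was not tested.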

How the data were processed

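Per the study's methods, RNA was labelled with Cy5 and put on Phalanx Mouse OneArray arrays, 2 for a sample. Flagged spots and control probes were removed, Rosetta Resolver scaled the signals by the median, and the authors then averaged both arrays. The deposited values are linear, background-subtracted intensities of 26423 probes. No source used here names a software version. Probes at or below 0 in any sample (1481, 5.6%) were left out, and log2 was taken of the deposited intensities as they stand. The other 24942 were fitted over all 9 samples in limma 3.58.1 under R 4.3.3 (lmFit with a mean for each of 3 groups, eBayes with an intensity trend), with Benjamini-Hochberg adjustment over all of them in each contrast and a threshold of 0.05. Of the probes 21876 had 1 gene symbol, 4547 none and 0 several. The brightest of a gene's probes stands for it (47 genes, 56 probes). The fit was tested on simulated data. Intensities keep no counts, so the number of arrays limits the precision.

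The members and all lists were chosen with earlier results of these data known. The genes named are, per contrast, the 3 with the smallest p (none passed), the 5 brightest and 5 dimmest subunit proteins, every paralog, Rplp0, Rpsa and Rpl5, and up to 3 per related list. Others were named after their values were seen. Alternatives were quantile, loess and median scaling, the upper 50% of probes, an offset of 36.05, no trend, sample weights, only the 6 samples of a contrast, the methods' t-test (equal variances, on log2 values; the study names it for experiments in general, while its arrays were compared by an error-weighted model of Rosetta Resolver, not run here), each sample left out, the replicate number as a block, the mean of all probes of a gene, subunit proteins only, and members without those near the ceiling. A restriction to members above the olfactory receptor level was added after seeing the data. Figures were drawn with matplotlib 3.10.9 in Python 3.11.15.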

Additional observations from a re-analysis of the deposited data

How the results depend on the processing

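With the values as deposited 0 members passed in each comparison. Shares in brackets are those of all probes. Between stiff and soft the count was 2 after quantile normalization (4.69%; Rpl5 higher, Rps4l lower), 1 after median centring (5.93%; Rps4l), 1 after loess normalization (3.95%; Rpl5) and 9 with sample weights (26.5%; 6 higher, 3 lower), which gave normal replicate 2 a weight of 0.0254 and stiff replicate 2 one of 5.23. Between stiff and normal, quantile normalization gave 4 (16.3%), median centring 7 (22.3%; all lower) and loess normalization 4 (15.8%), and the count was 2 in the upper 50% of probes (16.4%), 4 with the offset (11.9%), 1 with no intensity trend (4.92%; Rps29) and 1 with all probes of a gene (10.7%; Rps27). Under both quantile and loess normalization Rpl5 passed as higher on the stiff ECM than normal, and Rpl29, Rps27 and Rpsa as lower. Between soft and normal the count was 1 after loess normalization (4.9%, Rpl29) and 1 in the upper 50% of probes (8.48%, Rps27). Leaving out 1 sample at a time gave 0 to 1 in each comparison. The 1 was Rpl5 between stiff and soft without normal replicate 1, Rps27 between stiff and normal without stiff replicate 1, Rps29 there without normal replicate 1, and Rps27 between soft and normal without stiff replicate 3. The cause was not tested.

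The members' median log2 fold change moved to -0.23 between stiff and soft and -0.18 between stiff and normal under median centring. Leaving out samples it ran from -0.01 to 0.05, from -0.11 to 0.03 and from -0.09 to -0.01 in the 3 comparisons. Of 15 comparisons of named genes run under the alternatives, 0 changed sign. These comparisons were picked for a small p in the main fit, and several alternatives keep its fold change. A change of sign was thus unlikely from the start, and no conclusion is drawn from its absence.

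With the replicate number as a block 0 members passed in any comparison. Deviations of samples of 1 number correlated between -0.22 and 0.133, so the numbers were not taken to pair the samples.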
